A study of Mus musculus with 25 samples.

Results

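The genes through which hepatocytes take in fructose and glucose and start or reverse their breakdown were followed in mouse liver over 6 weeks of a NASH diet, a diet that induces nonalcoholic steatohepatitis (fatty, inflamed liver). They were chosen by symbol: Khk, Aldoc, Tkfc, Slc2a2, Gckr, Fbp1, Pklr and Pkm, 8 of the 37085 symbols in the count table. A further aldolase gene, Aldoa, is described beside Aldoc. All libraries came from livers of C57BL/6 mice, dispersed with collagenase, pelleted at low speed and sorted by flow cytometry as hepatocytes. The library kit, QuantSeq 3' FWD, reads the 3' end of polyadenylated transcripts. The 25 libraries were 5 from mice on normal diet and, after 1, 2, 3, 4, 5 and 6 weeks of NASH diet, 4, 3, 4, 3, 3 and 3. The labels used here give neither the sort gate, nor what the diets contained, nor the animals' sex and age. They also leave unsaid whether every library came from its own animal, and a p-value then reflects only library-to-library spread, which may be technical.

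Glucose and fructose reach the hepatocyte through the portal blood and cross its membrane through GLUT2, encoded by Slc2a2. Glucose is then phosphorylated, a step that the regulatory protein encoded by Gckr restrains until fructose 1-phosphate relieves it. Fructose takes its own route: ketohexokinase (Khk) makes fructose 1-phosphate, which is split in the next step, and triokinase (Tkfc) phosphorylates the glyceraldehyde that results, so that its carbon enters below the phosphofructokinase step. Pyruvate kinase ends glycolysis, as the liver and red cell form from Pklr or as the form from Pkm that most other cells use, and fructose-1,6-bisphosphatase (Fbp1) runs the opposing step of gluconeogenesis. In liver, Pklr and several genes of fructose breakdown and fat synthesis are known targets of the carbohydrate response factor ChREBP (Mlxipl).

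The promoters of 3 of the genes that hold a searched motif are shown. Those of Pkm and Gckr also hold a searched motif and are not shown. Pkm holds the same sterol motif core as Aldoc, and the 2 genes changed in opposite directions. Whether the motif bears on either change was not tested. Each window runs from 250 bases before to 50 bases after a RefSeq transcription start, on the plus strand of GRCm38.p6, which is an older build than the one the counts were made on. Capitals mark the matched motif.
Pklr, chr3:89136373-89136672: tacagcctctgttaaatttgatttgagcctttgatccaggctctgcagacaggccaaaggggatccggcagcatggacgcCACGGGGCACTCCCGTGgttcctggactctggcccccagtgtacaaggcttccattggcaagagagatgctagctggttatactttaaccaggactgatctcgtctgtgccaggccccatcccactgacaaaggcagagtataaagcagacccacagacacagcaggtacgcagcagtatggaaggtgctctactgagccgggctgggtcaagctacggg
Khk, chr5:30921309-30921608: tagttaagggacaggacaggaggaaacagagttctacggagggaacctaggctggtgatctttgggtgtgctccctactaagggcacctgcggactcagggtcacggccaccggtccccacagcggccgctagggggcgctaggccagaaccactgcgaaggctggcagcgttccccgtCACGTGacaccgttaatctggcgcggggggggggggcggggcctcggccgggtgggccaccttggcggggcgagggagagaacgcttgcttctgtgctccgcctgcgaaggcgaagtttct
Aldoc, chr11:78322823-78323122: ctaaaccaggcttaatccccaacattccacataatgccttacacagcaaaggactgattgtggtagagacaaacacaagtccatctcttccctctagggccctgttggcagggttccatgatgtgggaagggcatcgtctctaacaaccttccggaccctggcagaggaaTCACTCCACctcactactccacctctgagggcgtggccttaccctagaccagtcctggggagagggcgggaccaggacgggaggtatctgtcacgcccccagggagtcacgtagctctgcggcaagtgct

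The Pklr window shown is that of the downstream RefSeq start and holds a carbohydrate response element, a pair of E-box-like half-sites that ChREBP is known to bind, whose first base lies 170 bases before the start. That motif was found in 0.119% of 32851 mouse promoter windows of the same length, searched on both strands. The Khk window holds the palindromic E-box CACGTG 71 bases before the start, a motif present in 7.15% of windows. The Aldoc window holds TCACTCCAC 80 bases before the start, a match to TCACNCCAC, the core of a sterol regulatory element, which 1.24% of windows hold. RefSeq windows were found for 8 of the 8 genes, 11 in all. Among the 11, a further TCACNCCAC match lay in 1 Pkm window, and the HNF1 half-site GTTAAT, present in 7.1% of windows, lay once each in Khk and Gckr. A match describes the letters of the window and says nothing of binding in these livers.

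Library totals ran between 5281143 and 10015751 counts. Levels are given as CPM, counts scaled to a common library total with a composition factor (TMM), and each transcript is counted at its 3' end whatever its length. Because the tags lie at the 3' end, the M1 and M2 forms of Pkm, the A and C forms of Khk and the liver and red cell forms of Pklr, which share their 3' ends, were each counted as 1 gene. A gene was called in a comparison when its edgeR quasi-likelihood p, adjusted by Benjamini-Hochberg over the 11869 genes tested, was under 0.05. All 8 genes passed the filter on low counts. The hepatocyte markers, led by Alb, stood high in every group but summed lower on the diet from week 1. They summed to 94590 to 104000 CPM on normal diet, 78940 to 87090 CPM at week 1 and 75780 to 91470 CPM at week 3. Weeks 2 and 4 overlapped normal diet. The sums were 70540 to 79210 CPM at week 5 and 75780 to 78080 CPM at week 6. Of the 10 markers, 0 were called at weeks 1 to 3, 2 were called lower at week 4, and 6 at each of weeks 5 and 6. The markers of Kupffer, sinusoidal endothelial and stellate cells were not at 0 in any group and were higher late in the diet. Those of cholangiocytes overlapped normal diet in sum. They ran from 35.5 to 58.56 CPM on normal diet, 24.11 to 47.35 CPM at week 5 and 39.6 to 48.96 CPM at week 6. Krt7 was at 0 counts on normal diet and Cldn7 at weeks 3 and 6. Of the 7 cholangiocyte markers 2 were tested, of which Spp1 was called higher at weeks 5 and 6. The 12 Kupffer cell markers summed to 1712 to 1858 CPM at week 5 and 1433 to 1731 CPM at week 6, against 115.5 to 624.6 CPM on normal diet, and 12 and 11 of them were called higher at these weeks. Markers of sinusoidal endothelial cells (12 of 12 at both weeks) and stellate cells (11 of 12 at both weeks) were also called higher. In the sorted bulk samples, more or fewer cells of a type and more or less RNA per cell cannot be told apart.

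Normal-diet library 3 stood apart in these genes and is given here before the results that rest on it. It had 605 CPM of Khk, against 203 to 240 CPM in the other 4 normal-diet libraries. It had 753 CPM of Tkfc, against 183 to 201 CPM, and 14.3 CPM of Pklr, against 3.77 to 4.38 CPM. It was the highest of the 5 normal-diet libraries in 6 of the 8 genes (75%), against 19.6% of all tested genes, and the lowest in Aldoc. Over all tested genes it did not stand apart: its mean correlation with the other normal-diet libraries was 0.967, and those of the other 4 were 0.962 to 0.967. Its total, 7310440 counts, and its mitochondrial share, 23.5% of counts, lay inside the range of the other libraries. The labels do not mark it in any way, so it was kept, and each result it changes is also given without it. It was singled out by its levels in these same genes, so their adjusted p-values without it favour calls.

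Against normal diet, the only one of the 8 genes called at weeks 1, 2, 3 and 4 was Aldoc, which was lower. Of all tested genes, 1.2%, 0.885%, 0.851% and 8.3% were called at these weeks, and 0.977%, 0.657%, 0.607% and 2.86% were called lower and 0.219%, 0.227%, 0.244% and 5.44% higher. At weeks 5 and 6, 2 of the 8 genes were called, Aldoc lower and Pkm higher, where 35.4% and 26.8% of all tested genes were called, so that 2 of 8 is near or below the background. By direction, 19.1% of all tested genes were called higher and 16.3% lower at week 5, and 16.3% higher and 10.5% lower at week 6. The same 2 genes were called for the mean of weeks 1 to 6 against normal diet (20% of all genes), for week 6 against week 1 (16.5%) and for the linear trend over weeks 1 to 6 (33.9%). These backgrounds split into 11.1% higher and 8.87% lower for the mean, 11.5% and 5% for week 6 against week 1, and 18.9% and 14.9% for the trend. The 6 comparisons of single weeks share the same 5 normal-diet libraries, so they are not independent of each other. The median log2 fold change over the 8 genes lay between -0.24 at week 1 and 0.30 at week 4, against medians of -0.05 to 0.02 over all tested genes.

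**Figure D1:**
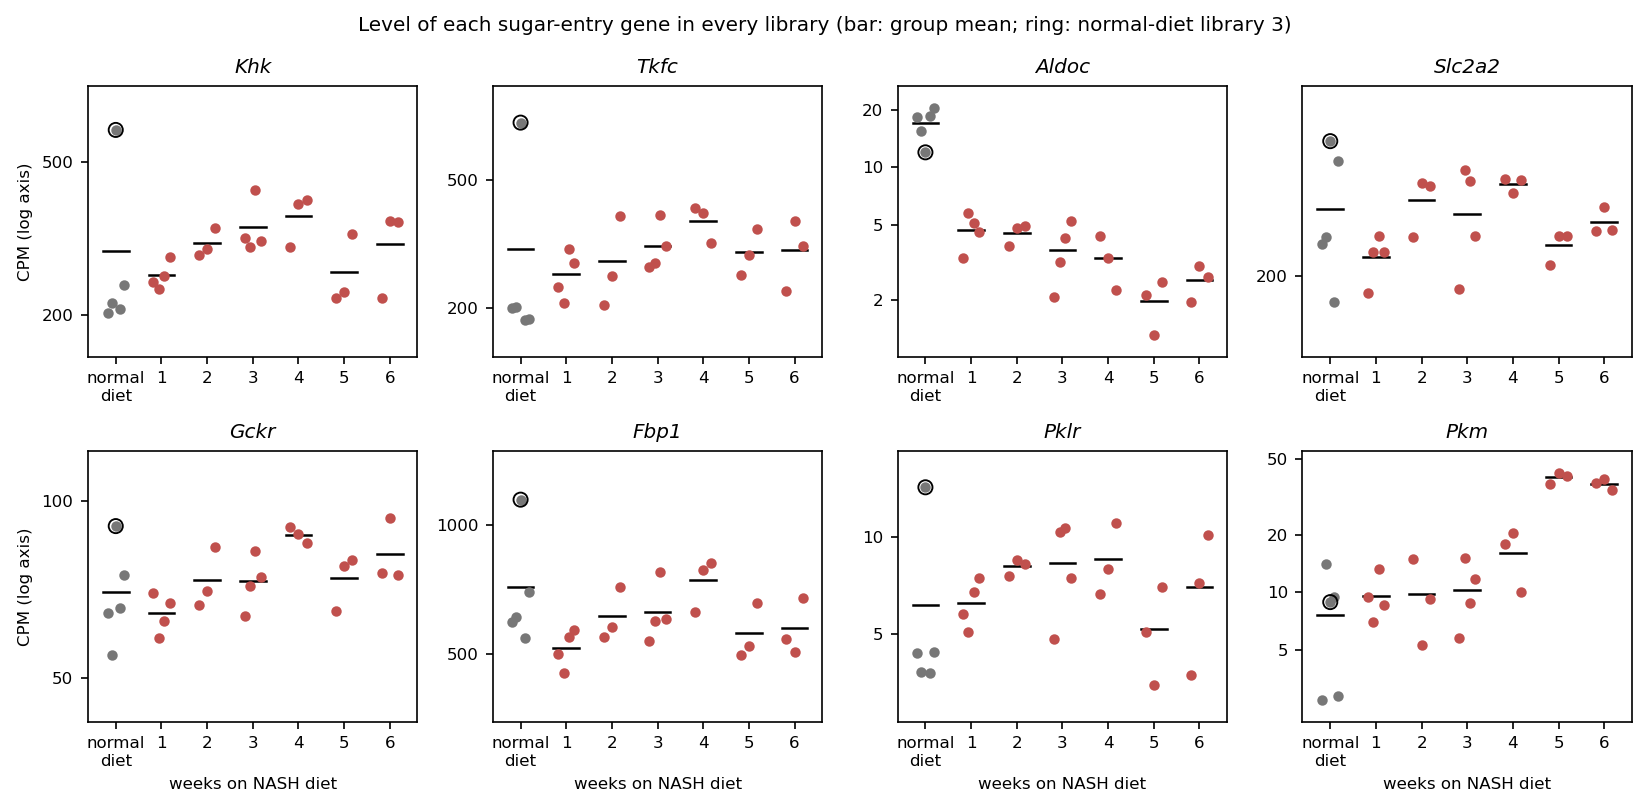
CPM of each of the 8 genes (log axis) in every library, from normal diet through weeks 1 to 6 of NASH diet; points are libraries, bars are group means and the ring marks normal-diet library 3. Aldoc lies below every normal-diet library in all 20 diet libraries, Pkm is high at weeks 5 and 6, and in Khk, Tkfc and Pklr the ringed library lies far above the other 4 normal-diet libraries.

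Slc2a2, the gene of the sugar transporter GLUT2, was not called in any comparison. It had 233, 241, 380, 177 and 346 CPM in the 5 normal-diet libraries. Its group means on the diet were 219 ± 24.5 (SD, n = 4), 287 ± 39.6 (n = 3), 269 ± 66.2 (n = 4), 310 ± 11.6 (n = 3), 232 ± 17.9 (n = 3) and 258 ± 17.2 CPM (n = 3) at weeks 1 to 6. All 6 weeks overlapped the normal-diet range. The largest difference was at week 1, a log2 fold change of -0.33 ± 0.17 (SE, adjusted p = 0.539). Of the other sugar transporters in the table, 5 passed the filter and none was called in any of the 9 comparisons with the quasi-likelihood test. These comparisons called from 0.851% of all tested genes (week 3) to 35.4% (week 5). Slc2a5, the fructose transporter GLUT5, averaged 12.5 ± 1.24 CPM at week 4 (SD, n = 3) and 7.84 ± 4.43 CPM on normal diet (n = 5). It was called higher at week 4 without normal-diet library 3, where 8.33% of all genes were called. Slc2a9, a urate and fructose transporter, averaged 43.3 ± 0.0785 CPM at week 4 and 36.3 ± 2.81 CPM on normal diet.

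Gckr, the regulatory protein that restrains glucose phosphorylation, was also not called in any comparison, and its mean was highest at week 4. It had 64.6, 54.7, 90.6, 65.8 and 74.7 CPM in the 5 normal-diet libraries. At week 4 it had 90.4, 87.7 and 84.8 CPM, all above normal-diet libraries 1, 2, 4 and 5 and below library 3. The week 4 change was 0.32 ± 0.13 (log2, SE, adjusted p = 0.128), and week 6 against week 1 gave 0.34 ± 0.14 (adjusted p = 0.0977). Without normal-diet library 3 the week 4 change was 0.43 ± 0.12 (adjusted p = 0.031). The calls of Gckr depended on the scaling: scaled by library total only, which moved the median of all genes up by 0.16 at week 4, 0.33 at week 5 and 0.30 at week 6, it was called higher at those weeks, with log2 fold changes of 0.50, 0.42 and 0.52.

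The genes of fructose breakdown, Khk and Tkfc, gave no call when all libraries were used. Khk had 203, 215, 605, 207 and 240 CPM in the 5 normal-diet libraries. At week 1 it had 244, 234, 253 and 283 CPM, and at week 2 it had 287, 297 and 336 CPM. At week 3 it had 318, 300, 422 and 312 CPM, and at week 4 it had 300, 389 and 399 CPM. All these diet libraries lay above normal-diet libraries 1, 2 and 4, and below library 3. At week 5 the values were 221, 230 and 324 CPM, and at week 6 they were 222, 351 and 348 CPM, so that both weeks held libraries within the range of the other 4 normal-diet libraries. Against all 5 normal-diet libraries the log2 fold changes of Khk lay between -0.21 ± 0.25 at week 1 and 0.30 ± 0.27 at week 4, with adjusted p of 0.837 and 0.539.

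Tkfc, the triokinase that phosphorylates glyceraldehyde, had a course like that of Khk (Pearson r = 0.865 over the 25 libraries, 0.790 without normal-diet library 3). It had 200, 201, 753, 183 and 184 CPM in the 5 normal-diet libraries. It had 232, 207, 305 and 275 CPM at week 1, 203, 250.6 and 386 CPM at week 2, and 268, 275, 389 and 310 CPM at week 3. It had 409, 394 and 318 CPM at week 4, 253, 291 and 352 CPM at week 5, and 225, 371 and 311 CPM at week 6. All 20 diet libraries were above the highest of the other 4 normal-diet libraries, 201 CPM, and below library 3. With library 3 included, the log2 fold changes lay between -0.26 ± 0.35 at week 1 and 0.30 ± 0.37 at week 4, with adjusted p of 0.862 and 0.68.

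Without normal-diet library 3, both genes were called higher in several weeks. Khk was higher by 0.64 ± 0.15 at week 3 (log2, SE, adjusted p = 0.03), by 0.75 ± 0.16 at week 4 (adjusted p = 0.00701) and by 0.50 ± 0.16 at week 6 (adjusted p = 0.0229). Tkfc was higher by 0.96 ± 0.19 at week 4 (adjusted p = 0.00406), by 0.64 ± 0.19 at week 5 (adjusted p = 0.0126) and by 0.66 ± 0.19 at week 6 (adjusted p = 0.0138). For the mean of weeks 1 to 6 the change was 0.48 ± 0.12 in Khk (adjusted p = 0.00828) and 0.65 ± 0.15 in Tkfc (adjusted p = 0.00421). Without that library 1.11%, 8.33%, 33.2% and 25.4% of all tested genes were called at weeks 3, 4, 5 and 6, and 16.6% for the mean. Whether the 5 or the 4 libraries better stand for normal diet cannot be told from the files, and the sign of the change depends on it in Tkfc at weeks 1, 2, 5 and 6 and for the mean, and in Khk at weeks 1 and 5.

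**Figure D2:**
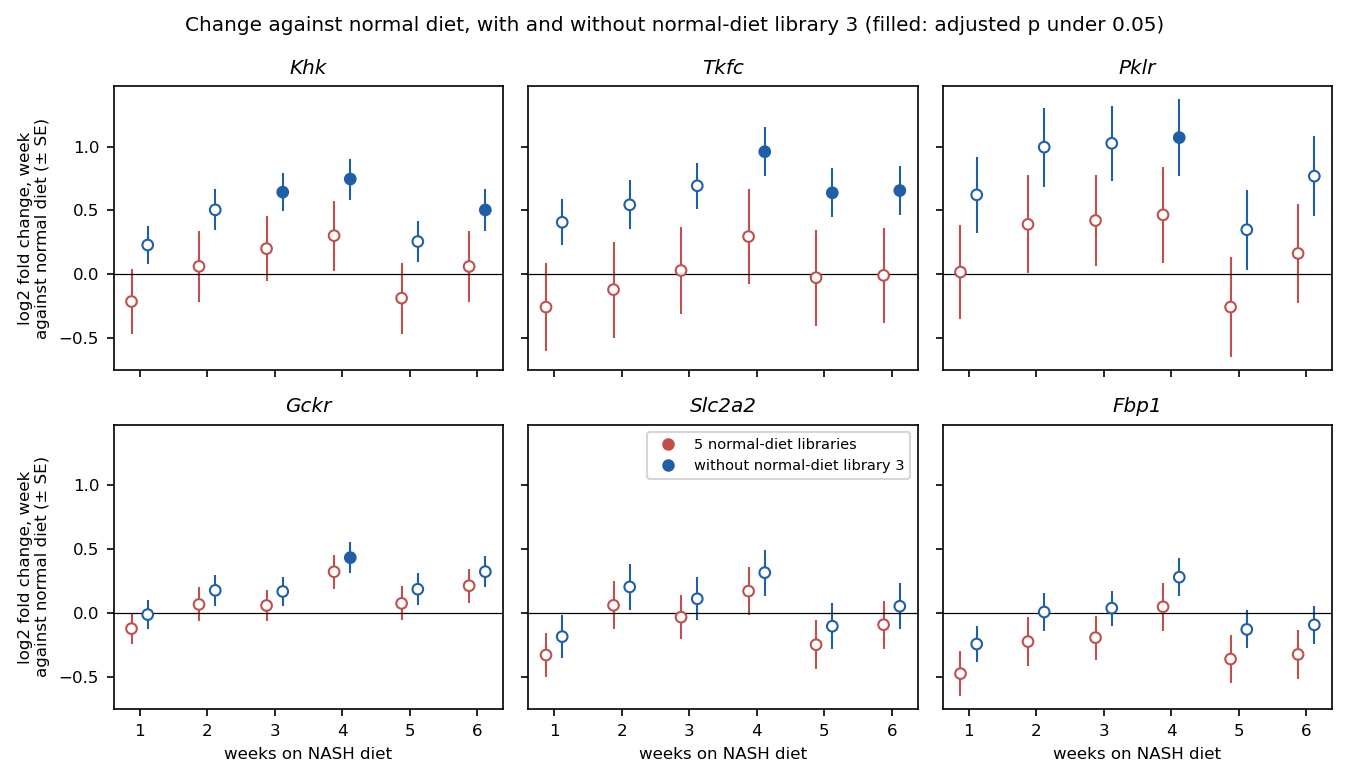
Log2 fold change of 6 genes at each week of NASH diet against normal diet, with error bars of 1 SE, from the edgeR fit with all 5 normal-diet libraries (red) and without normal-diet library 3 (blue); filled points have an adjusted p under 0.05. Leaving out that library raises every point, and only then are Khk, Tkfc, Pklr and Gckr called, all 4 at week 4.

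Aldoc, which encodes aldolase C, the brain-type isoform, fell at week 1 and stayed low to week 6. In the 5 normal-diet libraries it had 18.5, 15.5, 11.99, 18.7 and 20.6 CPM. At week 1 it had 3.35, 5.78, 5.08 and 4.58 CPM, at week 2 it had 3.86, 4.79 and 4.91 CPM, and at week 3 it had 2.08, 3.16, 4.23 and 5.21 CPM. At week 4 it had 4.36, 3.35 and 2.26 CPM, at week 5 it had 2.14, 1.31 and 2.495 CPM, and at week 6 it had 1.96, 3.02 and 2.65 CPM. All 20 diet libraries lay below all 5 normal-diet libraries, the highest diet library at 5.78 CPM and the lowest normal-diet library at 11.99 CPM.

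The log2 fold change of Aldoc was -1.85 ± 0.24 at week 1 (SE, adjusted p = 4.5e-05), 3.60-fold lower, and Aldoc ranked 12 by p among all tested genes. It was -1.91 ± 0.27 at week 2 (adjusted p = 0.000221), -2.19 ± 0.25 at week 3 (adjusted p = 1.42e-05) and -2.35 ± 0.27 at week 4 (adjusted p = 6.94e-06). It was -3.09 ± 0.29 at week 5 (adjusted p = 1.91e-07), 8.51-fold lower, and -2.75 ± 0.29 at week 6 (adjusted p = 1.76e-06). For the mean of weeks 1 to 6 the change was -2.36 ± 0.16 (adjusted p = 1.56e-10), rank 4 of 11869. In every single week Aldoc was called under each of the 34 alternatives tried. They include a fit with the mean level of the Kupffer, endothelial and stellate markers as a covariate, where week 5 gave -2.83 ± 0.47 (adjusted p = 0.00552). These are small counts, 502 in the 5 normal-diet libraries together and 54 in the 3 of week 5.

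By mean level of Aldoc the groups ran from normal diet (17.1 CPM) through week 1 (4.70), week 2 (4.52), week 3 (3.67), week 4 (3.32) and week 6 (2.54) to week 5 (1.98). Neighbours in that order among the diet weeks had overlapping libraries. The linear trend over weeks 1 to 6 was -0.23 ± 0.05 per week (log2, adjusted p = 0.00119), and lost its call with the marker covariate (adjusted p = 0.423), a fit that called 0.059% of all genes. Week 6 against week 1 gave -0.90 ± 0.30 (adjusted p = 0.0428), a call that ended without week 1 library 2, 3 or 4, week 4 library 2, week 5 library 1, or week 6 library 1 or 3, with adjusted p of 0.0516 to 0.193. It also ended with median-of-ratios size factors (adjusted p = 0.0509), library size only (0.125), the stricter filter (0.0559), only the groups compared (0.0706), the replicate block (0.0842) and the marker covariate (0.573).

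Aldoa, the muscle-type aldolase, was not called lower in any week. It ran from 61.7 to 89.4 CPM on the diet, against 58.0 to 72.0 CPM on normal diet, and overlapped normal diet in every week. It was called higher at week 6 alone (0.30 ± 0.11, adjusted p = 0.0472).

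The genes whose levels ran most like Aldoc over the 25 libraries were Ces2a, a carboxylesterase, Cyp51, the sterol 14-demethylase of cholesterol synthesis, and Fdft1, squalene synthase, with Pearson r of log2 CPM of 0.924, 0.924 and 0.920 among 6211 candidate genes. Within the 20 diet libraries alone the r values were lower, at 0.799, 0.600 and 0.667. Cyp51 had 39.0 ± 6.81 CPM at week 1 (SD, n = 4), against 177 ± 54.2 CPM on normal diet (n = 5), a log2 fold change of -2.18 ± 0.25 (SE, adjusted p = 1.71e-05). Fdft1 had 10.6 ± 1.83 CPM at week 1, against 38.2 ± 12.4 CPM on normal diet (-1.84 ± 0.27, adjusted p = 0.000402). Ces2a had 139 ± 11.9 CPM at week 1, against 280 ± 55.8 CPM on normal diet (-1.01 ± 0.16, adjusted p = 0.000796). Like Aldoc, Cyp51 and Fdft1 had their lowest normal-diet value in library 3, at 89.7 and 16.8 CPM, still above every diet library. The correlations are descriptions over libraries that share the diet groups and carry no test.

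**Figure D3:**
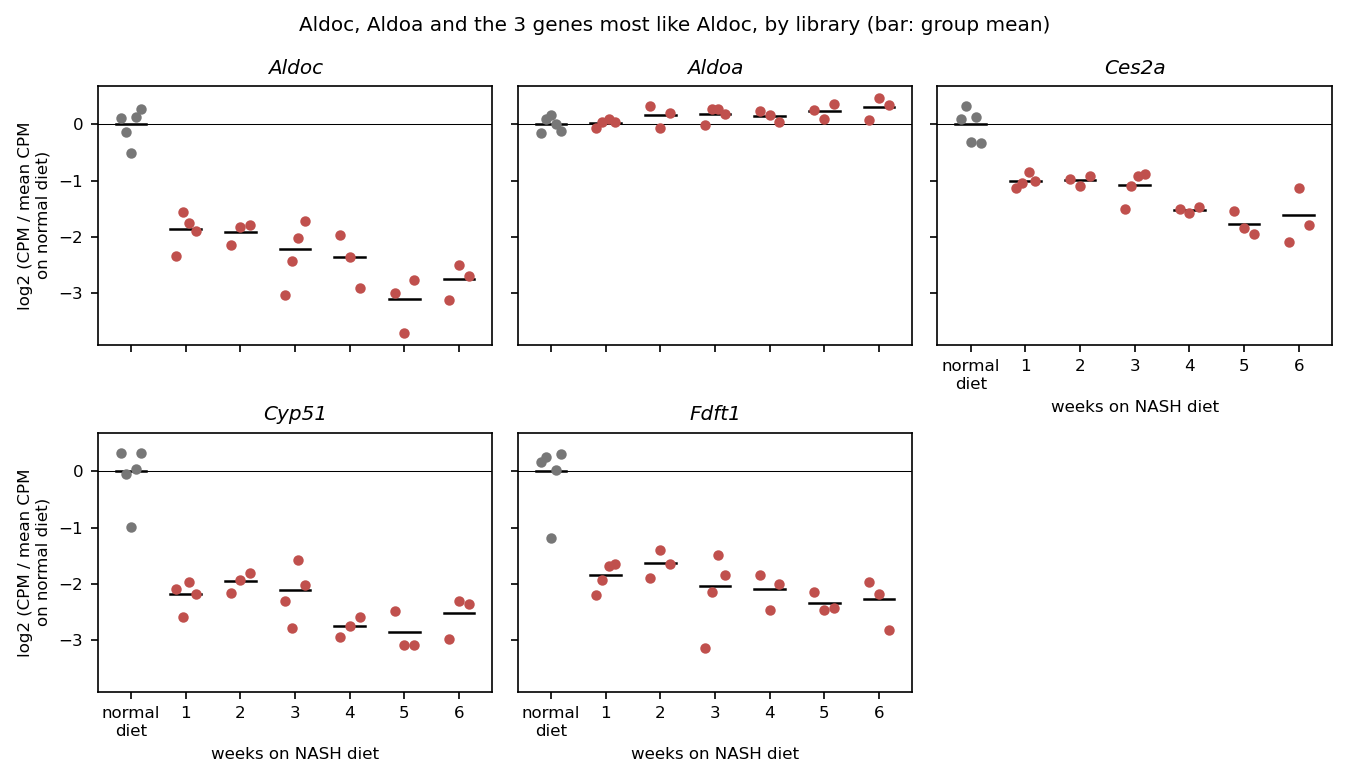
Level of Aldoc, of Aldoa and of the 3 genes most like Aldoc in every library, as log2 of CPM over the normal-diet mean; points are libraries and bars are the log2 of group means. Aldoc, Ces2a, Cyp51 and Fdft1 step down at week 1 and remain below normal diet through week 6, and Aldoa overlaps normal diet in every week.

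Pklr, the liver and red cell pyruvate kinase, was not called against normal diet when all libraries were used. It had 4.35, 3.79, 14.3, 3.77 and 4.38 CPM in the 5 normal-diet libraries. It had 5.75, 5.06, 6.73 and 7.48 CPM at week 1, 7.57, 8.50 and 8.26 CPM at week 2, and 4.80, 10.4, 10.7 and 7.45 CPM at week 3. It had 6.64, 7.98 and 11.1 CPM at week 4, 5.06, 3.45 and 7.01 CPM at week 5, and 3.71, 7.18 and 10.1 CPM at week 6. In weeks 1 to 4 all of the libraries lay above the other 4 normal-diet libraries and below library 3, and in weeks 5 and 6 the lowest library of each lay below all 5. The week 4 change was 0.47 ± 0.38 (log2, SE, adjusted p = 0.486) with all libraries and 1.07 ± 0.30 (adjusted p = 0.0303) without normal-diet library 3. For the mean of weeks 1 to 6 it was 0.20 ± 0.28 (adjusted p = 0.661) with it and 0.81 ± 0.24 (adjusted p = 0.023) without it.

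Khk and Pklr ran together, with r = 0.871 over the 25 libraries and 0.847 without normal-diet library 3. Khk ran most like Gpi1, the glucose 6-phosphate isomerase (0.916), and Tkfc most like Acaca, the acetyl-CoA carboxylase of fat synthesis (0.913). Without normal-diet library 3 these r values were 0.882 and 0.861, so the likeness was also present in the remaining libraries. Fbp1 ran most like Elovl6 (0.900), Uox (0.894) and Acly (0.857), of which Elovl6 and Acly serve fat synthesis and Uox urate breakdown. Slc2a2 ran most like Mid1ip1 (0.820), Fbxo34 and Lrrc28, and Gckr most like Slc20a1 (0.829), Apoc2 and Aqp4.

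Pkm, the pyruvate kinase of most tissues other than liver, was higher at weeks 5 and 6. It had 2.72, 14.1, 8.88, 9.42 and 2.85 CPM in the 5 normal-diet libraries. It had 9.42, 6.94, 13.3 and 8.55 CPM at week 1, 14.9, 5.25 and 9.22 CPM at week 2, and 5.76, 15.1, 8.80 and 11.7 CPM at week 3, all overlapping normal diet. At week 4 it had 17.96, 20.5 and 10.0 CPM, at week 5 it had 37.1, 42.5 and 41.0 CPM, and at week 6 it had 37.4, 39.1 and 34.3 CPM. The 6 libraries of weeks 5 and 6 lay above every other library. By mean level the order was normal diet (7.60 CPM), weeks 1 to 3 (9.56, 9.78 and 10.3), week 4 (16.2), week 6 (36.9) and week 5 (40.2), and neighbours in it overlapped except weeks 4 and 6.

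The change of Pkm was 1.06 ± 0.39 at week 4 (log2, SE, adjusted p = 0.0971), 2.37 ± 0.38 at week 5 (adjusted p = 7.8e-05), 5.17-fold higher, and 2.25 ± 0.38 at week 6 (adjusted p = 0.000223), 4.75-fold higher. Week 6 against week 1 gave 1.95 ± 0.40 (adjusted p = 0.00302), and the trend over weeks 1 to 6 was 0.47 ± 0.07 per week (adjusted p = 3.76e-05). For the mean of weeks 1 to 6 the change was 1.12 ± 0.30 (adjusted p = 0.012), and 0.65 ± 0.27 (adjusted p = 0.143) without normal-diet libraries 1 and 5. Those 2 had the lowest Pkm and the lowest Kupffer, endothelial and stellate markers of the normal-diet libraries. Week 4 was called without normal-diet library 2 (adjusted p = 0.0437), without week 4 library 3 (adjusted p = 0.0494) and with DESeq2 (adjusted p = 0.0468).

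The level of Pkm ran with the markers of Kupffer, endothelial and stellate cells. Per 1000 counts on the 12 Kupffer cell markers, Pkm had 20.0 to 23.9 counts at week 5 and 22.2 to 23.9 at week 6, against 15.1 to 26.5 on normal diet, so that on this measure both weeks overlapped normal diet. Weeks 1 to 4 had 13.7 to 20.0, 11.8 to 16.8, 9.51 to 18.3 and 15.1 to 21.0, so the 3 libraries of week 6 lay above every library of weeks 1 to 4. The genes most like Pkm were Cd52, Tyrobp and Vim, of which Cd52 and Tyrobp are leukocyte genes and Vim is a gene of mesenchymal cells and leukocytes, with r of 0.973, 0.971 and 0.968. With the mean level of the Kupffer, endothelial and stellate markers as a covariate, the Pkm change was 0.06 ± 0.45 at week 5 (adjusted p = 0.99) and 0.23 ± 0.40 at week 6 (adjusted p = 0.892), and its mean over weeks 1 to 6 turned to -0.17 ± 0.27 (adjusted p = 0.866). That fit called 0.0927% and 0.202% of all genes at weeks 5 and 6, and the marker level was itself highest at those weeks, so the diet and the marker level cannot be told apart there. Which cells the Pkm transcripts came from was not tested.

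**Figure D4:**
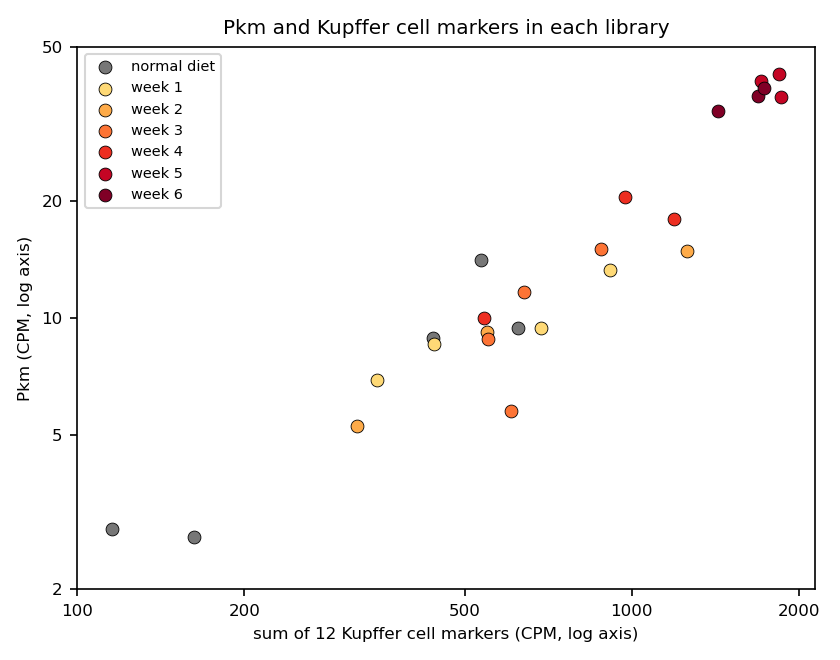
Pkm level against the summed level of 12 Kupffer cell markers, both in CPM on log axes; each point is 1 of 25 libraries, coloured by group. The 2 measures are high together in weeks 5 and 6 (Pkm 34.3 to 42.5 CPM, markers 1433 to 1858 CPM) and low together in 2 normal-diet libraries (Pkm 2.72 and 2.85 CPM).

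The 2 pyruvate kinase genes were also compared within each library, which needs no scaling between libraries. Pkm took 85.4 to 92.5% of the Pkm and Pklr counts at week 5 and 77.2 to 91.0% at week 6, against 38.3 to 78.9% on normal diet. The log2 ratio of Pkm to Pklr was higher by 2.75 at week 5 (two-sided exact permutation test, p = 0.0357, the smallest p that 3 against 5 libraries allow) and by 2.25 at week 6 (exact p = 0.0714). Adjusted over the 6 weeks both were 0.214, so neither passed. Week 5 was already at its smallest possible p, so the adjusted test could not have called it on its own. In weeks 1 to 4 the ratio differed from normal diet by -0.10 to 0.63, with exact p of 0.357 to 0.952.

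Fbp1, the fructose-1,6-bisphosphatase of gluconeogenesis, was not called in any comparison, with or without normal-diet library 3. It had 593, 608, 1145, 545 and 698 CPM in the 5 normal-diet libraries. Its diet means were 516 ± 52.3 (SD, n = 4), 614 ± 90.1 (n = 3), 628 ± 103 (n = 4), 742 ± 102 (n = 3), 559 ± 87.3 (n = 3) and 573 ± 89.8 CPM (n = 3) at weeks 1 to 6. The groups overlapped in every week, and 7 of the 20 diet libraries lay below all normal-diet libraries. The week 1 change was -0.48 ± 0.17 (log2, SE, adjusted p = 0.248) with all libraries and -0.24 ± 0.14 (adjusted p = 0.61) without library 3.

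The neighbouring pathways were described from lists of known enzymes. Of 18 glycolytic genes tested, 5 were called higher and 2 lower at week 5, and 6 higher and 1 lower at week 6, where 19.1% and 16.3% of all tested genes were called higher and 16.3% and 10.5% lower. Scaled by library size only, 8 were higher and 1 lower at week 5 and 7 higher and none lower at week 6, and without normal-diet library 3 week 6 had 8 higher and 1 lower. The higher ones with the smallest p at week 5 were the hexokinases Hk3, Hk1 and Hk2 and the lactate dehydrogenase subunit Ldhb, genes that leukocytes and other non-parenchymal cells are known to express. Hk3 had 3.60 ± 0.714 CPM at week 5, against 0.620 ± 0.291 CPM on normal diet, a log2 fold change of 2.48 ± 0.49 (SE, adjusted p = 0.000326). The Kupffer, endothelial and stellate markers were also called higher at these weeks, and which cells the transcripts came from was not tested. With the marker covariate 0 of the 18 were called at weeks 5 and 6. That fit called 0.0927% and 0.202% of all genes at these weeks, so a count of 0 is near its background. Tpi1, triose phosphate isomerase, which joins the aldolase products to glycolysis, was lower, at 113 ± 12.8 CPM at week 5 against 169 ± 21.9 CPM on normal diet (-0.58 ± 0.13, adjusted p = 0.00131), a call lost with library size only.

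Of 9 genes of gluconeogenesis and glucose release, 4 were called lower at week 6 and none higher, where 10.5% of all tested genes and 6 of 10 hepatocyte markers were called lower. They were Mdh1 and Got1, the cytosolic malate dehydrogenase and aspartate transaminase, Pck1, the phosphoenolpyruvate carboxykinase, and the alanine transaminase Gpt. Pck1 had 875 ± 441 CPM at week 6, against 1773 ± 381 CPM on normal diet (-1.02 ± 0.27, adjusted p = 0.0078). Its means were 1607 CPM at week 4 and 1423 CPM at week 5, where it was not called. At week 5 Mdh1 and Gpt were called lower and Pck2 higher, where 16.3% of all tested genes were called lower and 19.1% higher. At weeks 2, 3 and 4 no gene of this list was called. Got1 was already lower at week 1, at 114 ± 12.7 CPM against 294 ± 86.8 CPM (-1.37 ± 0.26, adjusted p = 0.00465). The 4 genes lower at week 6 were also called so without normal-diet library 3. None of the 9 was called at week 6 with the marker covariate, a fit that called 0.202% of all genes there. Scaled by library size only, Mdh1 and Got1 were called lower at week 6, Pck1 and Gpt were not, and Pck2 and G6pc3 were called higher. Of the 4 genes that make and break fructose 2,6-bisphosphate, the signal that opposes Fbp1, the liver form Pfkfb1 was lower at week 6 (12 ± 1.98 CPM against 20.9 ± 3.96 CPM, -0.81 ± 0.17, adjusted p = 0.00106). Pfkfb4 was higher at that week, from a low level (1.85 ± 0.571 CPM against 0.181 ± 0.189 CPM, adjusted p = 0.0014). At week 5 Pfkfb1 was also called lower, and Pfkfb3 and Pfkfb4 were called higher.

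The list of ChREBP, its partner and its targets followed normal-diet library 3. That library was the highest of the 5 normal-diet libraries in 13 of its 15 genes (86.7%, against 19.6% of all tested genes). It had 2054 CPM of Thrsp, a lipogenic nuclear protein, against a mean of 406 CPM in the other 4. It had 1332 CPM of the fatty acid synthase Fasn, against 294 CPM, and 835.5 CPM of the citrate lyase Acly, against 256 CPM. It had 250 CPM of Gpi1, of the glycolysis list, against 79.9 CPM, and 31 counts of the insulin-responsive transporter Slc2a4, which was at 0 counts in the other 4. Mlxipl, the gene of ChREBP itself, differed less (165 against 104 CPM). For the mean of weeks 1 to 6 against normal diet, 4 of the 15 genes were called lower (Me1, Thrsp, Mlx and Acly) and none higher. Of all tested genes, 8.87% were called lower and 11.1% higher. Scaled by library size only 2 were called lower (Me1 and Thrsp), where 295 of all genes were called lower and 2494 higher. Without library 3 none was called lower and 1, the desaturase Scd1, was called higher, where 826 of all genes were called lower and 1150 higher. At week 5 alone, with all libraries, Txnip and Fgf21 were called higher and Mlx, Thrsp and Tkt lower, where 19.1% of all tested genes were called higher and 16.3% lower. Txnip had 204.5 ± 50.2 CPM at week 5, against 75.1 ± 22.2 CPM on normal diet, and was also called higher in the trend. Scaled by library size only, Txnip and Fgf21 were still called higher at week 5 and none lower.

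**Figure D5:**
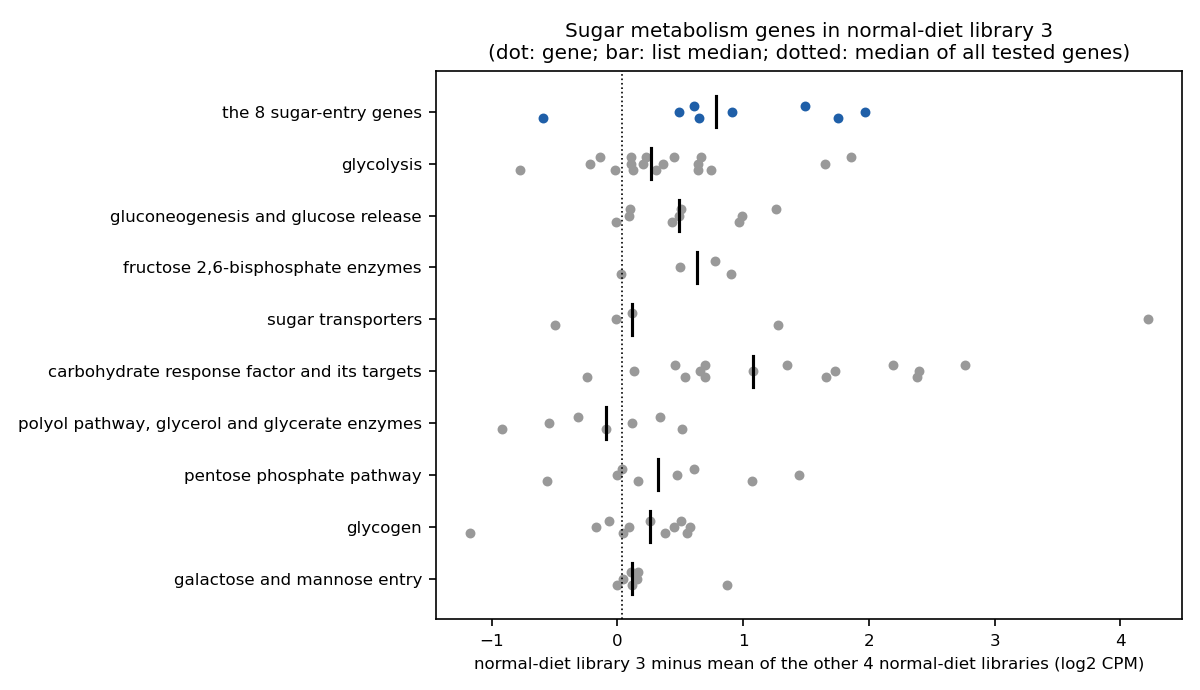
Normal-diet library 3 minus the mean of the other 4 normal-diet libraries, in log2 CPM, for the tested genes of each list; points are genes, bars are list medians and the dotted line is the median of all tested genes (0.03). The medians are 0.78 for the 8 sugar-entry genes and 1.08 for the carbohydrate response factor and its targets.

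In the remaining lists most of the calls at weeks 5 and 6, where 16.3% and 10.5% of all tested genes were called lower, depended on the scaling. Of 7 genes of the polyol pathway and of glycerol and glycerate metabolism, 2 were lower at week 5 and at week 6, the alcohol dehydrogenase Adh1 and Dhdh. Adh1, which can also reduce and oxidise small aldehydes, had 1252 ± 22.3 CPM at week 5, against 2458 ± 466 CPM on normal diet (-0.97 ± 0.15, adjusted p = 4.41e-05). Of 8 genes of the pentose phosphate pathway, 2 were lower at week 5 (H6pd and Pgls) and 2 at week 6 (H6pd and Rpe). Of 7 genes through which galactose and mannose enter, Galt, the galactose 1-phosphate uridylyltransferase, was lower at weeks 5 and 6, with log2 fold changes of -0.80 ± 0.14 (adjusted p = 8.24e-05) and -0.54 ± 0.13 (adjusted p = 0.00375), and Galm was also lower at week 6. Of 11 glycogen genes, the phosphorylase Pygl and the phosphatase subunit Ppp1r3b were lower at week 5 and none was called at week 6. Scaled by library size only, Adh1 was still called lower at both weeks and Galt at week 5, while Dhdh, H6pd, Pgls, Rpe, Galm, Pygl, Ppp1r3b and, at week 6, Galt were not. With that scaling the glycogen genes Ugp2 and Pgm2 were called higher at week 5. Gpd2, of the polyol and glycerol list, was called higher at both weeks, and Pmm2, of the galactose and mannose list, at week 6. Without normal-diet library 3 Ppp1r3b and Galm lost their calls. With the marker covariate none of the genes of these lists was called at weeks 5 and 6, where that fit called 0.0927% and 0.202% of all genes.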

How the data were processed

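The authors deposited raw counts, 1 column for each of 25 libraries and 1 row per gene symbol, with column totals of 5281143 to 10015751. Per the submitters' processing notes, FastQC, cutadapt and STAR 2.7.1a were used with GRCm39; which counting tool and annotation followed was not given in the sources used here. Groups were taken from the labels. The count columns name the diet WD where the sample titles say NASH, and columns were matched to titles by week and number. Genes with low counts were removed (filterByExpr), leaving 11869, and 1 model of 7 groups (18 residual degrees of freedom) was fitted to the 25 libraries with edgeR 4.0.16 (TMM, robust quasi-likelihood) in R 4.3.3, with Benjamini-Hochberg adjustment and a threshold of 0.05. The SE was taken as the log2 fold change over the square root of F. Levels are TMM-scaled CPM; likeness used log2 CPM with a prior count of 2 among genes averaging at least 10 CPM, and the most alike, up to 3, were named for each gene. The Pkm to Pklr ratio used a pseudocount of 0.5 and an exact permutation test. Code was tested on simulated data. Over the 34 same-group pairs of libraries, chi-square per degree of freedom was 5.42 to 32.2, so no library was a copy. Alternatives were other scalings and filters, DESeq2 1.42.0, fewer groups, a replicate block, the marker level as a covariate and leaving out each library. The 8 genes and the related lists were chosen with earlier results of these data known; genes outside the lists are named by likeness, and list members by their calls. Intervals of counting error were not added to replicated values. Results that need some genes of these lists are not reported here.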

Additional observations from a re-analysis of the deposited data

Results flagged for a closer look

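In normal-diet library 3, Khk (604.8 CPM), Pklr (14.33 CPM) and Tkfc (753.4 CPM) lay far from the other 4 normal-diet libraries, as did Khk in library 3 of week 3 (422.4 CPM) from the other 3 of its week. The week 3 case only just passed the cut (gap over range 0.83, critical value 0.829). These were 4 of 24 combinations of gene and group examined for a library far from the rest, and chance gives about 5% of groups. The flags of Khk, Pklr and Tkfc come from the same library. The 3 genes ran together over the libraries (r of 0.705 to 0.871), so these flags are not independent and the 5% is no measure for them.

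The change against normal diet differed between week 6 and week 1 in Aldoc, by -0.9013 on the log2 scale (edgeR quasi-likelihood, adjusted p = 0.0428), and in Pkm, by 1.945 (adjusted p = 0.00302).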

How the results depend on the processing

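Which of the 8 genes were called depended mostly on normal-diet library 3, on the marker covariate and, for Gckr, on the scaling. At week 4 the count of called genes was 1, and 2 with library size only and 2 with DESeq2. At weeks 5 and 6 it was 2, and 1 with the marker covariate. With library size only it was 3 at weeks 5 and 6, for the mean and for the trend, Gckr being added. For the mean of weeks 1 to 6 it was 2, and 1 with the replicate block, with the marker covariate, or with normal-diet libraries 1 and 5 removed, an alternative chosen after seeing the data. For week 6 against week 1 it was 2, and 1 with median-of-ratios size factors, the stricter filter, only the groups compared or the replicate block, and 0 with the marker covariate; with library size only it was also 2, but these were Gckr and Pkm, and Aldoc lost its call (adjusted p = 0.125). For the trend it was 2, and 0 with the marker covariate. The causes were not tested.

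Leaving out each library in turn gave counts of 1 to 1 at weeks 1 and 2, 1 to 2 at week 3, 1 to 5 at week 4, 2 to 3 at week 5, 2 to 4 at week 6, 2 to 5 for the mean, 1 to 2 for week 6 against week 1 and 2 to 3 for the trend. The Pkm to Pklr difference then ran from 0.1015 to 0.7416 at week 1, -0.5108 to 0.3151 at week 2, -0.1875 to 0.4526 at week 3, 0.3582 to 1.145 at week 4, 2.455 to 3.161 at week 5 and 1.844 to 2.659 at week 6. Without normal-diet replicate 3, Tkfc turned to 0.6383 at week 5, 0.6559 at week 6 and 0.6499 for the mean (lowest when another library was left out, -0.1712, -0.1853 and -0.1527), and with the marker covariate the Pkm mean turned to -0.1736. Fbp1 and Slc2a2 were called under none of the alternatives run.

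Replicate numbers did not pair the libraries: over 66 same-numbered pairs from different groups the median correlation of deviations was -0.005, and 14 exceeded 0.1. Over 200 differently numbered pairs from different groups the median was -0.0026, and 43 exceeded 0.1. With the replicate block, 59 genes were called at week 2, 334 at week 4 and 1399 for the mean, against 105, 985 and 2371. With the marker covariate, 49, 52, 11, 24, 61, 0 and 7 genes were called at weeks 2, 4, 5 and 6, for the mean, for week 6 against week 1 and for the trend. Over the alternatives other than leaving out 1 library, the calls ran from 84 to 267 at week 1 (142 as reported), 49 to 198 at week 2 (105), 45 to 217 at week 3 (101), 52 to 1328 at week 4 (985), 11 to 4144 at week 5 (4197), 24 to 3491 at week 6 (3175) and 61 to 2789 for the mean (2371). Scaled by library size only, the calls split into more higher ones: 1032 higher and 150 lower at week 4 (646 and 339 as reported), 3779 and 365 at week 5 (2268 and 1929), 3260 and 231 at week 6 (1929 and 1246), 2494 and 295 for the mean (1318 and 1053). Transcripts with few counts, such as Aldoc on the diet and Pklr, limit the precision of their folds.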
